A study of Mus musculus with 12 samples.

Results

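Hox genes encode homeodomain transcription factors that set the position of a cell along the body axis and along the limb. Mammals carry them in 4 clusters, Hoxa to Hoxd, in which the paralog number follows the order of the genes, with low numbers used towards the head and high numbers towards the tail and the tip of the limb. Adult fibroblasts and mesenchymal cells keep much of the Hox pattern of the site they came from, so the set of active Hox genes is often read as a record of position. All protein-coding rows named Hoxa, Hoxb, Hoxc or Hoxd with a paralog number were taken, 39 of the 22222 protein-coding rows and of 56350 rows in all. A Hox gene was counted as expressed where more than 10 counts fell on it in at least 3 of the 12 libraries, and as silent otherwise. By this rule 19 Hox genes were expressed and 20 were silent.

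The libraries were made from MPC2, a clone of conditionally immortalized mouse mesenchymal progenitor cells that divides at 33 °C. Undifferentiated cells (MSCs) were set beside cells kept for 3 weeks at 37 °C in osteogenic medium with β-glycerophosphate and ascorbic acid (osteocytes). Each state received the vehicle DMSO or 50 µmol/L FG-4592 (Roxadustat), a prolyl hydroxylase inhibitor that stabilizes hypoxia-inducible factors (HIF), for 48 h, to ask how oxygen sensing acts on bone cells, and each of the 4 conditions had 3 libraries. Temperature, medium and time in culture changed together with differentiation, so that they cannot be told apart. All cells belong to 1 clone, and the labels do not say that the 3 libraries of a condition came from separate cultures, so the p-values measure the spread between these libraries, which may be technical. In bulk RNA, fewer cells of a type and less RNA per cell cannot be told apart.

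Each library held 52829185 to 68108470 counts, of which the Hox genes took 0.0231 to 0.0368%. Of the 13 osteoblast and osteocyte markers examined 10 were tested, and from MSCs to osteocytes with vehicle 6 rose and 2 fell, where 26% and 24.9% of all genes tested did. Dmp1, a matrix protein of osteocytes, and Phex, an endopeptidase of mineralizing bone cells, rose (log2 fold changes of 3.23 and 5.88), the matrix protein gene Ibsp and the phosphatase gene Alpl fell (-0.74 and -0.33), and the late osteocyte marker Sost stood at 0 counts in all 12 libraries. With FG-4592, 6 of the 10 fell and 1 rose in MSCs, where 20.4% and 17.6% of all genes did, and 7 fell and 1 rose in osteocytes, where 22% and 21.9% did. Adipocyte markers rose too, 5 of 5 tested, and their summed level went from 82.8 to 89.1 CPM in vehicle MSCs to 1680 to 2310 CPM in vehicle osteocytes, with none of the 6 at 0 in all libraries. Their part in the Hox differences between MSCs and osteocytes was not tested. Among 10 known HIF targets, 8 rose with FG-4592 in MSCs and 10 in osteocytes, where 17.6% and 21.9% of all genes did.

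The DNA that makes the genes of 1 paralog group alike is the homeobox, 180 bases that encode the homeodomain. The homeoboxes of group 10 are shown because it holds the Hox genes with the highest mean levels in the data, and those of group 13 because Hoxc13 passed both cutoffs between MSCs and osteocytes, each beside silent genes of the same paralog number. They were read from the GENCODE M21 transcripts (GRCm38), 5′ to 3′ on the coding strand. Capitals mark the bases that differ from Hoxa10 in group 10, and from Hoxc13 in group 13.
Hoxa10, expressed, chr6:52232554-52232733, minus strand: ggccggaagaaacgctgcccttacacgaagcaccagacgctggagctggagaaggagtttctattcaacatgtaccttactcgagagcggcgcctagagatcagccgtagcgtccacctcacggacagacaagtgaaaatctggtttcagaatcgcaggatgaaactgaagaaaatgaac
Hoxc10, expressed, chr15:102970848-102971027, plus strand: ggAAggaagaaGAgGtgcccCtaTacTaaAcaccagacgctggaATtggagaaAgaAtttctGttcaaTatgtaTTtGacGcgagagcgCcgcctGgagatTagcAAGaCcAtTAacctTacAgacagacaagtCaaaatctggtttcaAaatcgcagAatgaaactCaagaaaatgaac
Hoxd10, silent, chr2:74694141-74694320, plus strand: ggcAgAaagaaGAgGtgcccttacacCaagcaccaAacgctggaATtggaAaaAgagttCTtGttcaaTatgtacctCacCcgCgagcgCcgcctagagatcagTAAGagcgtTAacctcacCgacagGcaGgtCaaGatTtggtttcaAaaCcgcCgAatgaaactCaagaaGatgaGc
Hoxc13, expressed, chr15:102927210-102927389, plus strand: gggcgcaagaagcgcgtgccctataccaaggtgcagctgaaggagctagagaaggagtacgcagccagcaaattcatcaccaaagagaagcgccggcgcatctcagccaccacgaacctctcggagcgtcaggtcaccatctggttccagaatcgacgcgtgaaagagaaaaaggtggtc
Hoxa13, silent, chr6:52258928-52259107, minus strand: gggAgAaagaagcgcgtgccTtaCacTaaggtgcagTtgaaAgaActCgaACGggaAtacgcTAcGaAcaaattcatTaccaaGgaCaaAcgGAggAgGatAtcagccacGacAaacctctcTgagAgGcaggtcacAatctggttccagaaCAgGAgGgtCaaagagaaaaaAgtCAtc
Hoxb13, silent, chr11:96196020-96196199, plus strand: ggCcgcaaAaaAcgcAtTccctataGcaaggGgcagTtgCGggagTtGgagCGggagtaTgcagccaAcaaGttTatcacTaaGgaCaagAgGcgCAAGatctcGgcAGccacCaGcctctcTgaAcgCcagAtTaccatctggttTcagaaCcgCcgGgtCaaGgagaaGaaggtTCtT

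Hoxc10 differed from Hoxa10 at 35 of these 180 bases and Hoxd10 at 38, while Hoxa13 and Hoxb13 differed from Hoxc13 at 41 and 47. Over the 42 pairs of Hox genes with the same paralog number, homeobox identity ranged from 67.2 to 93.9% with a median of 80.6%. Over the other 699 pairs it ranged from 46.1 to 88.9% with a median of 60.6%. The longest stretch that was identical between the transcripts of 2 Hox genes sharing no exonic bases was 52 bases long, in Hoxa6 and Hoxb4, and none of these 739 pairs shared 100 bases, the length of 1 sequenced read. The 19 expressed and 20 silent genes could therefore be told apart by whole reads, except where genes of 1 cluster overlap on the genome.

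Expression followed the clusters. In Hoxa, 10 of 11 genes were expressed, and in Hoxc all 9 were, against 0 of 10 in Hoxb and 0 of 9 in Hoxd. Of all protein-coding rows, 58.2% were expressed by the same rule. The Hoxa cluster lies at chr6:52155590-52260880 (mm10) and collected 122325 counts over the 12 libraries, and the Hoxc cluster at chr15:102921103-103036852 collected 94760. The Hoxb cluster at chr11:96194316-96368256 collected 88 counts and the Hoxd cluster at chr2:74668310-74765142 collected 20.

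**Figure D1:**
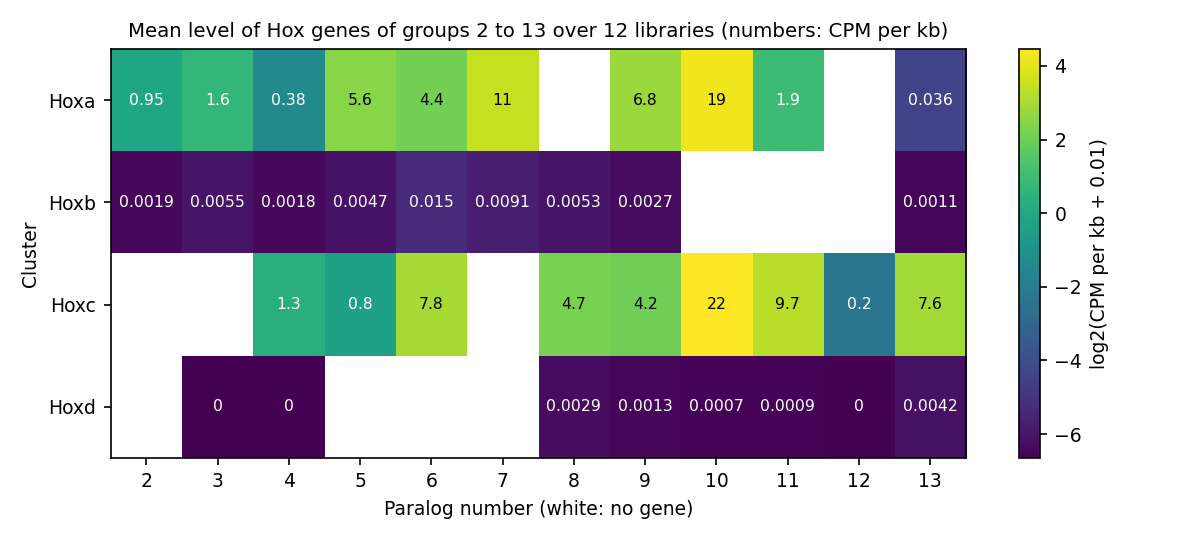
Mean level of the Hox genes of paralog numbers 2 to 13 over 12 libraries, by cluster (rows) and paralog number (columns). Numbers are CPM per kilobase of exon and colours its log2 with 0.01 added, white fields have no gene, and levels stand out in the Hoxa and Hoxc rows while Hoxb, Hoxd and Hoxa13 sit near 0.

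The silent genes were close to empty. Of their 240 gene and library pairs, 184 held 0 counts, and the 20 genes together held 174 counts against 217019 on the expressed genes, or 0.0801% of Hox counts. A count of 0 allows up to 3 counts, which is 0.0447 to 0.0545 CPM in these libraries, for counting error only. Hoxd1, Hoxd3, Hoxd4 and Hoxd12 had 0 counts in every library. The highest count on any silent gene was 18, on Hoxb6 in 1 library of vehicle osteocytes, and the highest in Hoxd was 4, on Hoxd13, the gene of digit formation. Hoxa13, which patterns hand and foot, was the only silent Hoxa gene, with 0 to 15 counts.

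At the border of the rule, Hoxc12 was just inside with 3 to 25 counts and 6 libraries over 10, followed by Hoxa4 with 15 to 70 counts. Just outside were Hoxa13, with 2 libraries over 10, and Hoxb6, with 1. By paralog number, groups 4, 5, 6, 9, 10 and 11 had 2 expressed members each, in Hoxa and Hoxc. Groups 2, 3 and 7 were expressed from Hoxa alone and groups 8, 12 and 13 from Hoxc alone.

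Genes beside the clusters were read by the same rule. Next to Hoxb, the nearest protein-coding genes on both sides were silent, Ttll6 with 0 to 3 counts and Skap1 with 0 to 19, and so was Calcoco2 beyond Ttll6, at 0 in all libraries. Farther out, Atp5g1 held 1906 to 2987 counts and Snx11 held 1262 to 2601. Next to Hoxd, the homeobox gene Evx2, 8753 bases away, held 0 to 5 counts, while Mtx2, a mitochondrial gene 60661 bases beyond the other end, held 1823 to 2843. Next to Hoxa, the homeobox gene Evx1 held 0 to 2 counts, while Skap2 at the other end held 4079 to 5452, and next to Hoxc, Calcoco1 held 4643 to 6468 and Smug1 held 913 to 1522. Of the 3 nearest protein-coding genes on each side, 5 of 6 were expressed around Hoxa, 3 of 6 around Hoxb, 6 of 6 around Hoxc and 5 of 6 around Hoxd. Of the other rows that lie inside the clusters, 7 of 20 in Hoxa, 1 of 9 in Hoxb, 1 of 7 in Hoxc and 0 of 10 in Hoxd were expressed. The expressed row in Hoxb was the processed pseudogene Gm11539, with 27 to 83 counts, and the one in Hoxc was the long noncoding RNA Hotair, with 49 to 133.

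Levels were compared between genes as CPM per kilobase of exon, with library sizes scaled by TMM. Over the 12 libraries the 2 expressed group 10 genes stood highest. Hoxc10 had 21.9 ± 6.26 CPM per kb (SD, n = 12; range 13.4 to 31.7) and Hoxa10 had 18.8 ± 2.52 (range 15.5 to 22.2). Both are known for patterning the upper segment of the hindlimb. Their ranges overlapped, so the mean order of this pair did not hold in all libraries, whereas Hoxa10 exceeded the next gene in 12 of 12. By the mean, Hoxa7, a gene of thoracic identity, followed with 11.2 ± 0.566, then Hoxc11 with 9.68 ± 3.23, Hoxc6 with 7.81 ± 1.54 and Hoxc13 with 7.63 ± 3.17. This order did not hold in all libraries either: Hoxc11 came next after the group 10 pair in 6 of 6 MSC libraries and Hoxa7 in 6 of 6 osteocyte libraries, and Hoxc6 exceeded Hoxc13 in 6 of 12. Among the 12943 protein-coding genes tested, Hoxc10 stood at percentile 83.4, Hoxa10 at 80.3, Hoxa7 at 68.2 and Hoxc12, the lowest expressed Hox gene, at 10.8. The remaining genes ran from 6.82 CPM per kb for Hoxa9 down to 0.195 for Hoxc12.

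Per kilobase, the leading gene changed with the cell state. Hoxc10 was the highest Hox gene in 6 of 6 MSC libraries and Hoxa10 in 6 of 6 osteocyte libraries. In CPM without division by length, Hoxa10 was the highest in 12 of 12. The ratio of Hoxa10 to Hoxc10 per kilobase was 0.618 to 0.723 in vehicle MSCs and 0.658 to 0.668 in treated MSCs. It was 1.07 to 1.27 in vehicle osteocytes and 1.15 to 1.29 in treated osteocytes, so that MSC and osteocyte libraries did not overlap. The Hoxc sum over the cluster was 77.6 ± 4.68 CPM per kb in vehicle MSCs, 64.8 ± 2.87 in treated MSCs, 50.1 ± 1.06 in vehicle osteocytes and 40.1 ± 1.44 in treated osteocytes (SD, n = 3 each). The Hoxa sum was 55 ± 2.17, 49.6 ± 0.288, 55.7 ± 3.53 and 51.7 ± 0.814 in the same order. The share of Hoxc in the whole Hox level was 58.5 ± 0.518%, 56.6 ± 1.06%, 47.3 ± 2.01% and 43.6 ± 0.866%. With genes that share exonic bases left out, the Hoxc share was 60, 60.2, 49.1 and 48.8%, so that the lower mean of treated than of vehicle MSCs was not kept. Without division by length, the summed CPM of Hoxc exceeded that of Hoxa in 2 of 12 libraries, both vehicle MSCs. These sums and shares were not tested.

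**Figure D2:**
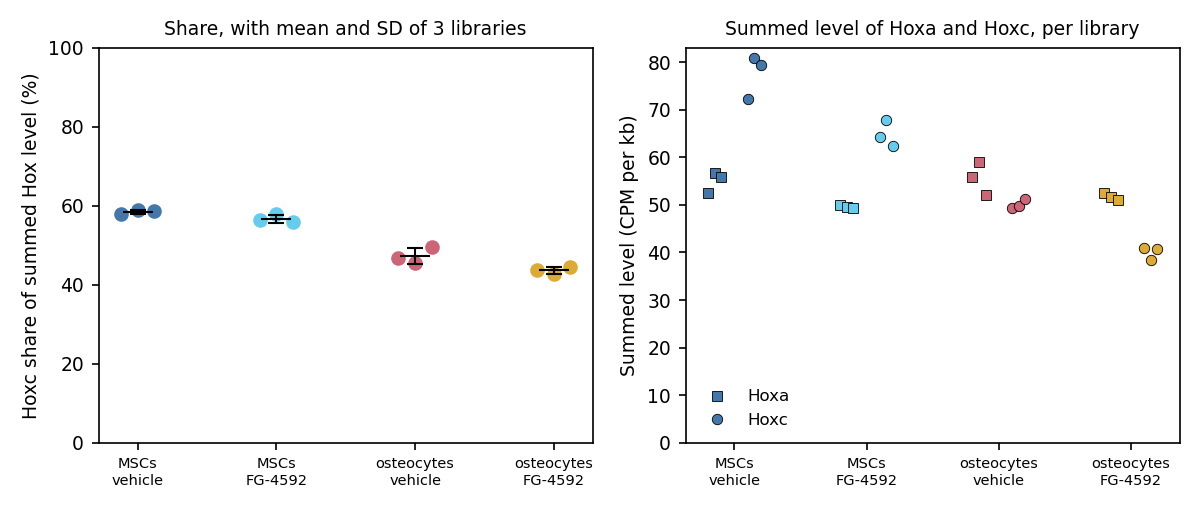
Hoxc share of the summed Hox level in percent (left, points are libraries, bars mean and SD of 3) and summed levels of Hoxa (squares) and Hoxc (circles) in CPM per kb per library (right). The Hoxc share averages 58.5% in vehicle MSCs and 43.6% in treated osteocytes, and per kilobase Hoxc lies above Hoxa in every MSC library and below it in every osteocyte library, while in CPM it lies above in 2 of 12.

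Differentiation was tested first. Between osteocytes and MSCs with vehicle, 10 of 18 expressed Hox genes differed at an adjusted p under 0.05 (edgeR quasi-likelihood test, Benjamini-Hochberg adjustment over 16484 genes). Of these 7 were lower, or 7 of 18 where 24.9% of all genes tested were lower, and 3 were higher where 26% of all were higher. The 7 that fell were all Hoxc genes, of 9 tested: Hoxc4, Hoxc5, Hoxc6, Hoxc9, Hoxc10, Hoxc11 and Hoxc13. The 3 that rose were Hoxa2, Hoxa10 and Hoxc8. The median log2 fold change was -0.65 over the Hoxc genes and 0 over 9 Hoxa genes, beside -0.01 over all genes tested. With FG-4592 in both states, 5 Hox genes fell where 25.3% of all genes fell, and 1 rose where 30.5% rose, with a median of -0.28 over Hoxc and 0.07 over Hoxa. Past the study's further cutoff of an absolute log2 fold change over 1 were Hoxc5 and Hoxc13 with vehicle, 2 of 18 against 15.9% of all genes, and Hoxc11 and Hoxc13 with FG-4592, 2 of 18 against 18.3%.

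Hoxc13, known for hair and nail formation, stood at 27.6, 29.9 and 28.4 CPM in vehicle MSCs, and at 13.6, 15 and 13.7 CPM in vehicle osteocytes. With FG-4592 it stood at 22.4, 24.1 and 21.9 CPM in MSCs and at 8.79, 10.1 and 9.81 CPM in osteocytes. All osteocyte libraries lay below all MSC libraries. The log2 fold change from MSCs to osteocytes was -1.02 ± 0.0788 (SE) with vehicle (edgeR adjusted p = 1.86e-08) and -1.25 ± 0.0804 with FG-4592 (edgeR adjusted p = 1.44e-09). The first value lay at the fold cutoff: it was -0.95 without vehicle MSC library 2, -0.99 without vehicle MSC library 3 and -0.96 without vehicle osteocyte library 1, and without vehicle osteocyte library 3 it rounded to -1 and missed the cutoff. It was -0.97 with genes that share exonic bases left out.

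Hoxc11, a gene of the lower segment of the hindlimb, had 25.2, 29.7 and 25.7 CPM in vehicle MSCs and 14.9, 15.6 and 15.5 CPM in vehicle osteocytes. In treated cells it had 23.3, 25.2 and 24 CPM as MSCs and 11.8, 11.4 and 12.6 CPM as osteocytes. The 2 states did not overlap. Hoxc11 fell by 0.81 ± 0.0788 on the log2 scale with vehicle (edgeR adjusted p = 3.05e-07) and by 1.02 ± 0.0797 with FG-4592 (edgeR adjusted p = 1.62e-08). The latter was -0.99 without treated MSC library 2 and -0.98 without treated osteocyte library 2, which put it inside the fold cutoff. Hoxc10 went from 53.7, 56.5 and 60.5 CPM in vehicle MSCs to 37.1, 33.4 and 39.7 CPM in vehicle osteocytes. In treated cells it went from 46.3, 48.3 and 45.1 CPM to 28.4, 25.5 and 26.1 CPM. Again no osteocyte library reached an MSC library. The log2 fold changes were -0.63 ± 0.0711 (edgeR adjusted p = 1.57e-06) and -0.80 ± 0.0719 (edgeR adjusted p = 8.66e-08).

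**Figure D3:**
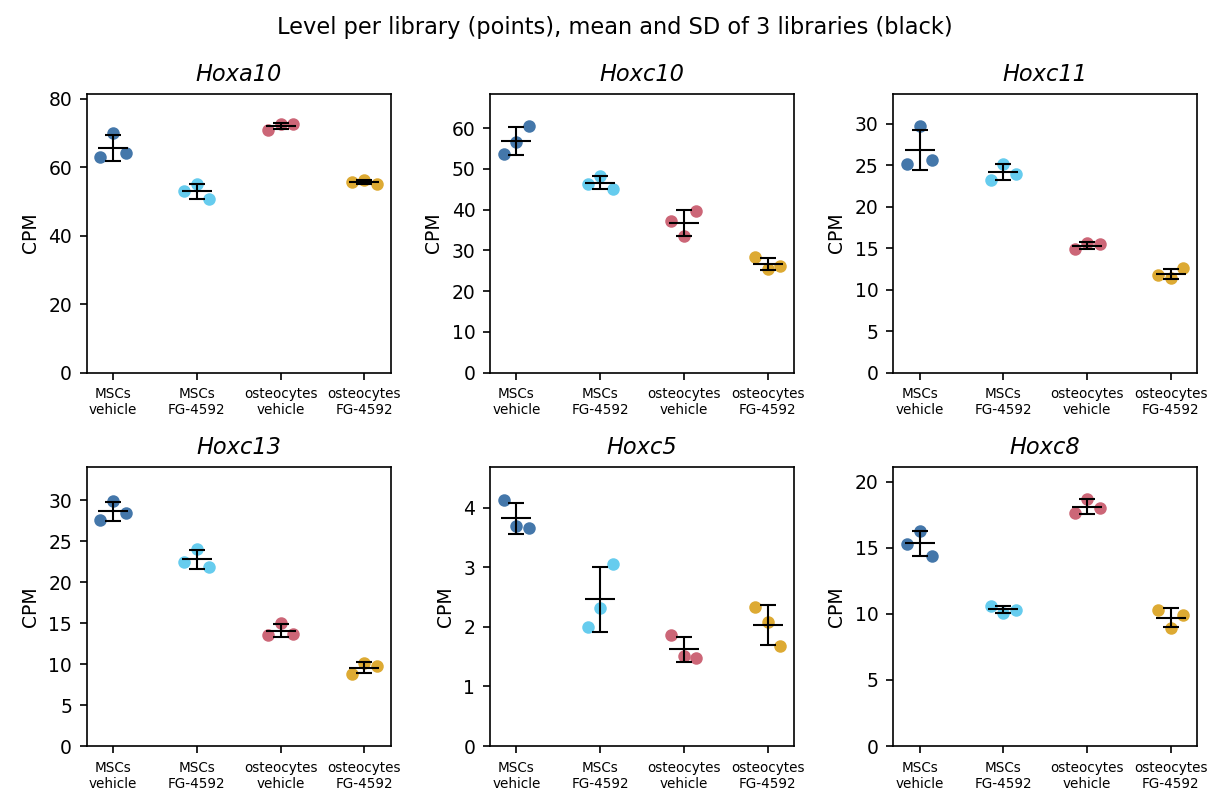
Level of 6 Hox genes in CPM in each library (points), with mean and SD of the 3 libraries of a condition (black); each axis starts at 0. Hoxc10, Hoxc11 and Hoxc13 step down from MSCs to osteocytes, Hoxa10 is lower with FG-4592 in both states, and Hoxc8 lies at 17.6 to 18.7 CPM in vehicle osteocytes and at 8.9 to 10.3 CPM in treated ones.

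At the other end of the cluster, Hoxc5 held 4.12, 3.69 and 3.65 CPM in vehicle MSCs and 1.87, 1.51 and 1.48 CPM in vehicle osteocytes. Its log2 fold change was -1.23 ± 0.206 (edgeR adjusted p = 0.000104), and it stayed past both cutoffs without any 1 library. In treated cells Hoxc5 held 2, 2.32 and 3.06 CPM as MSCs and 2.34, 2.08 and 1.68 CPM as osteocytes, which overlapped, and the log2 fold change of -0.27 ± 0.204 did not pass (edgeR adjusted p = 0.272). Hoxc5 shares 166 exonic bases with Hoxc10, which are 5.37% of the length of Hoxc5 and 8.7% of that of Hoxc10. Hoxc10 held 1561 to 3853 counts against 84 to 232 for Hoxc5, and a pair on the shared bases was counted for both genes. Hoxc10 was itself lower in osteocytes, and its part in the Hoxc5 values was not tested. Hoxc6, which acts at the level of the forelimb and thorax, stood at 19.7, 23.9 and 24.7 CPM in vehicle MSCs and at 13.4, 14.8 and 14.3 CPM in vehicle osteocytes. In treated cells it stood at 21.1, 22 and 19.9 CPM as MSCs and at 17.8, 16.1 and 17.9 CPM as osteocytes. Hoxc6 fell by 0.68 ± 0.0913 on the log2 scale with vehicle (edgeR adjusted p = 1.09e-05) and by 0.28 ± 0.0905 with FG-4592 (edgeR adjusted p = 0.0143). The smaller of these was lost without treated MSC library 2 (-0.25, edgeR adjusted p = 0.0582) or treated osteocyte library 2 (-0.22, edgeR adjusted p = 0.0785).

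Of the 2 other Hoxc genes that fell with vehicle, Hoxc9 ran from 9.01 to 13.3 CPM in MSCs and from 8.29 to 8.43 CPM in osteocytes (log2 fold change -0.49 ± 0.136). It missed the threshold without vehicle MSC library 2 (-0.38, edgeR adjusted p = 0.0561) or 3 (-0.36, edgeR adjusted p = 0.0589). Hoxc4 (log2 fold change -0.65 ± 0.222) missed it without vehicle MSC library 1 (-0.62) or 2 (-0.53) and without vehicle osteocyte library 1 (-0.45) or 3 (-0.53), with edgeR adjusted p of 0.0584 to 0.124. Hoxc8, a gene of the thoracic level, went the other way, from 14.4 to 16.3 CPM in vehicle MSCs to 17.6 to 18.7 CPM in vehicle osteocytes (log2 fold change 0.24 ± 0.083, edgeR adjusted p = 0.0228), a call lost with no filter on low counts (0.22, edgeR adjusted p = 0.142). Hoxc12 had too few counts for a firm value, and its log2 fold change of 0.28 with vehicle had a 95% interval from -1.43 to 2.00.

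Hoxa7 stood at 32.8, 32.4 and 32 CPM in vehicle MSCs, at 31.7, 30.8 and 32.3 CPM in treated MSCs, at 33.3, 35.2 and 28.6 CPM in vehicle osteocytes and at 34, 31.8 and 32.3 CPM in treated osteocytes. The 95% intervals of its log2 fold changes were -0.17 to 0.16 and -0.12 to 0.21 for differentiation with vehicle and FG-4592, and -0.20 to 0.13 and -0.15 to 0.18 for FG-4592 in MSCs and osteocytes. The noncoding gene Hoxaas3 overlaps 20.4% of the Hoxa7 exons. In all, 6 of the 18 genes (Hoxa4, Hoxa5, Hoxa6, Hoxa7, Hoxa9 and Hoxc12) passed the test in none of these 4 comparisons, which share libraries. Hoxc10 and Hoxc13 were lower in all 4. The shares of all genes tested that did either were not counted, so these counts have no background beside them.

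Hoxa2, a selector gene of the second pharyngeal arch, rose from 0.739 to 1.34 CPM in vehicle MSCs to 1.78 to 2.37 CPM in vehicle osteocytes (log2 fold change 0.94 ± 0.299, edgeR adjusted p = 0.015). This was lost without vehicle MSC library 3 (0.78, edgeR adjusted p = 0.0588) or vehicle osteocyte library 3 (0.81, edgeR adjusted p = 0.0554). Hoxa2 passed both cutoffs without vehicle MSC library 2 (1.19) or vehicle osteocyte library 1 (1.06) or 2 (1.02). In treated cells the log2 fold change of Hoxa2 was 1.00 ± 0.293, just under the fold cutoff. The difference was lost without treated osteocyte library 1 (0.79, edgeR adjusted p = 0.0535). It passed both cutoffs without treated MSC library 3 (1.26) or treated osteocyte library 2 (1.17) or 3 (1.03). Hoxa11, like Hoxc11 a gene of the lower limb segment, fell only in the comparison with FG-4592, by 0.94 ± 0.233 (edgeR adjusted p = 0.00258), from 4.11 to 6.39 CPM down to 1.75 to 3.42 CPM. This fall passed the fold cutoff too without treated MSC library 3 (-1.07) or treated osteocyte library 3 (-1.17). With vehicle its log2 fold change was -0.30 ± 0.226 and did not pass, and the difference between these 2 did not pass either (-0.65 ± 0.324, edgeR adjusted p = 0.169). Hoxa11 shares 35% of its exonic bases with the antisense gene Hoxa11os, and the counting did not separate strands.

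Hoxa10 had 62.9, 69.9 and 64.1 CPM in vehicle MSCs and 71, 72.6 and 72.7 CPM in vehicle osteocytes. The log2 fold change of 0.13 ± 0.0517 (edgeR adjusted p = 0.0394) was small, and it was lost without vehicle MSC library 1 (edgeR adjusted p = 0.0659) or vehicle osteocyte library 3 (edgeR adjusted p = 0.0782). It was also lost with upper-quartile scaling (edgeR adjusted p = 0.0716), on library size alone (edgeR adjusted p = 0.121), with no filter (edgeR adjusted p = 0.263) and by the likelihood ratio test (adjusted p rounding to 0.05). With FG-4592, Hoxa10 had 53, 55.1 and 50.8 CPM in MSCs and 55.8, 56.2 and 55.1 CPM in osteocytes. FG-4592 thus went with a lower Hoxa10 in each state, and no treated library reached a vehicle library. The log2 fold change for FG-4592 was -0.31 ± 0.0519 in MSCs (edgeR adjusted p = 0.000163) and -0.37 ± 0.0518 in osteocytes (edgeR adjusted p = 2.05e-05).

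**Figure D4:**
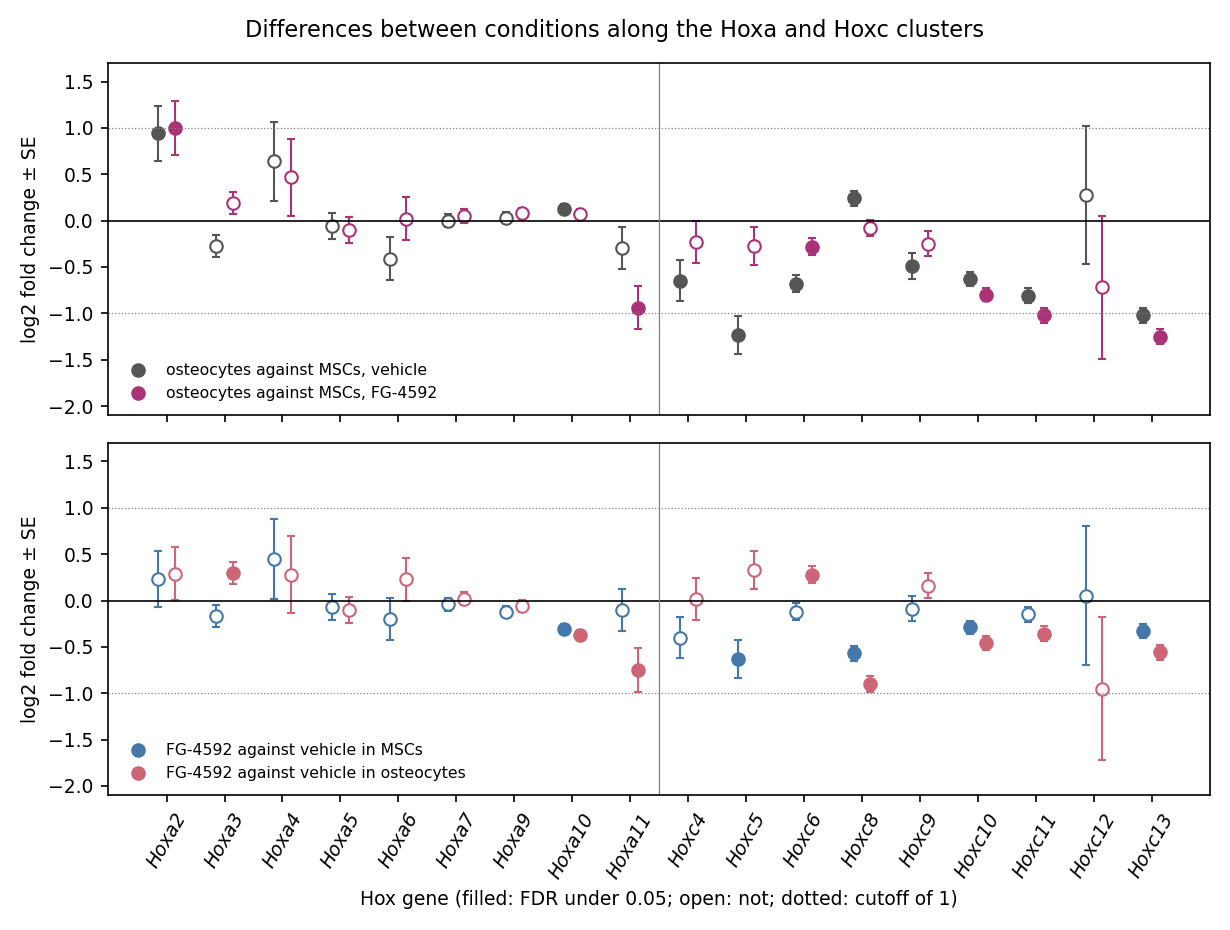
log2 fold changes with SE of 18 expressed Hox genes in cluster order, for osteocytes against MSCs (top) and FG-4592 against vehicle (bottom); filled points have an adjusted p under 0.05 and dotted lines mark the fold cutoff of 1. In the top panel 7 Hoxc genes are filled below 0 with vehicle, and in the bottom panel no filled point lies beyond a dotted line, with Hoxc8 in osteocytes the lowest filled one at -0.90.

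The response to FG-4592 was tested next. In MSCs 5 Hox genes fell and 0 rose, where 20.4% of all genes tested fell and 17.6% rose, and 0 passed both cutoffs, where 9.29% of all did. At an unadjusted p under 0.05 there were 5, all of them lower. In osteocytes 6 fell and 2 rose, where 22% of all genes fell and 21.9% rose, and 0 passed both cutoffs, where 10.5% of all did. There 8 had an unadjusted p under 0.05. The share of all genes tested at that unadjusted threshold was not counted in either state. By DESeq2, too, 0 rose in MSCs and 0 passed both cutoffs in either state. The median log2 fold change over the 18 genes was -0.13 in MSCs and -0.02 in osteocytes, beside -0.05 and 0 over all genes tested. Hoxa10, Hoxc8, Hoxc10 and Hoxc13 fell in both states, and the share of all genes tested that fell in both was not counted. The summed level of 10 mesenchymal progenitor markers, none of them at 0 in all libraries, moved with the treatment as well, from 10000 to 10900 CPM in vehicle MSCs to 4720 to 4780 CPM in treated MSCs and from 14600 to 16000 CPM to 8970 to 9350 CPM in osteocytes. Most of that sum was the chemokine Cxcl12, at 8200 to 9090 and 3110 to 3180 CPM in vehicle and treated MSCs and at 12500 to 13800 and 7210 to 7620 CPM in osteocytes. The other 9 markers together held 1790 to 1820 and 1580 to 1610 CPM in MSCs, and 2110 to 2140 and 1730 to 1790 CPM in osteocytes. Their part in the Hox values was not tested.

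Hoxc8 showed the largest of these falls in osteocytes, from 17.6 to 18.7 CPM with vehicle to 8.9 to 10.3 CPM with FG-4592. In MSCs it went from 14.4 to 16.3 CPM to 10.1 to 10.6 CPM. The log2 fold changes were -0.90 ± 0.0845 in osteocytes (edgeR adjusted p = 2.67e-07) and -0.57 ± 0.0843 in MSCs (edgeR adjusted p = 5.05e-05). The difference of -0.33 ± 0.119 between them did not pass (edgeR adjusted p = 0.0575). Hoxc13 fell by 0.56 ± 0.0809 on the log2 scale in osteocytes and by 0.33 ± 0.0772 in MSCs, and Hoxc10 by 0.46 ± 0.072 and by 0.29 ± 0.0705. Hoxc11 fell in osteocytes (-0.36 ± 0.0802, edgeR adjusted p = 0.00145) and did not pass in MSCs (-0.15 ± 0.0774, edgeR adjusted p = 0.141). Hoxa11 fell in osteocytes by 0.75 ± 0.233 (edgeR adjusted p = 0.0158), which was lost without vehicle osteocyte library 1 (-0.64, edgeR adjusted p = 0.0519) or treated osteocyte library 2 (-0.52, edgeR adjusted p = 0.0783).

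Hoxa3, which acts in the pharyngeal organs, had a log2 fold change of 0.30 ± 0.117 with FG-4592 in osteocytes (edgeR adjusted p = 0.0493), a call that 6 of 21 other settings kept. It was lost without vehicle osteocyte library 1 or 2 or treated osteocyte library 1, 2 or 3, at 0.19 to 0.35, and without vehicle MSC library 1, 2 or 3 or treated MSC library 2, at 0.28 to 0.3. Hoxc6 rose by 0.28 ± 0.0915 on the log2 scale (edgeR adjusted p = 0.019), from 13.4 to 14.8 CPM to 16.1 to 17.9 CPM. That call was lost without vehicle osteocyte library 1 (0.23), treated osteocyte library 1 (0.26) or treated osteocyte library 3 (0.26), and on library size alone (0.19, edgeR adjusted p = 0.12). In MSCs Hoxc5 fell by 0.63 ± 0.201 (edgeR adjusted p = 0.0199), and this was lost without vehicle MSC library 1 or 2 or treated MSC library 1 or 2, at -0.63 to -0.5.

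The FG-4592 response differed between osteocytes and MSCs for Hoxc5 and Hoxc6, 2 of 18 genes in the higher direction, where 13.3% of all genes tested passed, and for 0 in the lower direction, where 11% passed. None passed both cutoffs, where 5.01% of all genes did. At an unadjusted p under 0.05 there were 4 of 18, 3 higher and 1 lower, and the share of all genes at that threshold was not counted. For Hoxc5 the response was -0.63 in MSCs and 0.33 in osteocytes, a difference of 0.96 ± 0.289 (edgeR adjusted p = 0.0236). For Hoxc6 it was -0.12 and 0.28, a difference of 0.40 ± 0.128 (edgeR adjusted p = 0.0327). The call for Hoxc5 ended without vehicle MSC library 1 or 2, treated MSC library 1 or 2, vehicle osteocyte library 2 or treated osteocyte library 1, at 0.83 to 0.94. The call for Hoxc6 ended without vehicle MSC library 2 or 3, treated MSC library 1 or 3, vehicle osteocyte library 1 or 2 or treated osteocyte library 1 or 3, at 0.29 to 0.4, and with genes that share exonic bases left out (0.34, edgeR adjusted p = 0.0732). DESeq2 placed Hoxc8 past the threshold in the lower direction (-0.35, adjusted p = 0.0333) and, like edgeR, 0 past both cutoffs.

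Promoters were searched for the cores that HIF binds, ACGTG and GCGTG. The 250 bases before the start were read from RefSeq (GRCm38.p6), where 22 of the 39 Hox genes had an entry and these gave 24 promoters. On either strand ACGTG occurred in 5 of 24 Hox promoters against 16.6% of 32851 promoters in all, and GCGTG in 7 of 24 against 28.2%. Among promoters of expressed Hox genes the counts were 1 and 4 of 10, and among silent ones 4 and 3 of 14. The homeodomain core TAATTA occurred in 2 of 24 against 4.84% of all, and the HOX and PBX site TGATTNAT in 2 of 24 against 2.82%. Hox promoters held a median of 12.5 CpG against 6 in all promoters. The promoters of Hoxa10 and Hoxa11 are shown because both genes fell with FG-4592 in osteocytes and hold such cores, and that of Hoxd10 because a silent gene holds one too. Hoxa10 has 2 promoters in RefSeq: the one shown lies inside the gene as deposited, and the one at its outer start, chr6:52240855-52241104, holds 0 ACGTG and 0 GCGTG. The core GCGTG also stood in Hoxa2, Hoxa3 and Hoxa5, none of which fell with FG-4592, and Hoxc8, Hoxc10, Hoxc11 and Hoxc13, 4 of the 6 Hox genes that fell in osteocytes, had no entry. They run 5′ to 3′ along the gene, with ACGTG or GCGTG cores of either strand in capitals (overlapping cores run together as CACGTG).
Hoxa10, chr6:52234940-52235189, minus strand: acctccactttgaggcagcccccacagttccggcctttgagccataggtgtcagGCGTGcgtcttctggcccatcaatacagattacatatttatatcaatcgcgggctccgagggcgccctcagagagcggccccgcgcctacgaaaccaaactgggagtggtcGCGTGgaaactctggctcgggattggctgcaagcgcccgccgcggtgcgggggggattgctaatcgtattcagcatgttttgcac
Hoxa11, chr6:52245811-52246060, minus strand: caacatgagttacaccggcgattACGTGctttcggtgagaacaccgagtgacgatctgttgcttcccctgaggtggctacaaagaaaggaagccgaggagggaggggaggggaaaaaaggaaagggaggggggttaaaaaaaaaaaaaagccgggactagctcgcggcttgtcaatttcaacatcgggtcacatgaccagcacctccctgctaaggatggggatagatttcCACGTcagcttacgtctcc
Hoxd10, chr2:74691641-74691890, plus strand: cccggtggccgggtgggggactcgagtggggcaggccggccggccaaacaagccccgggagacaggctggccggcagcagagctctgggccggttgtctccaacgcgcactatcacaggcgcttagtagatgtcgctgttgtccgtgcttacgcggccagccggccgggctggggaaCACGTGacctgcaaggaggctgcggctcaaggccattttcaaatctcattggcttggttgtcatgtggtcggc

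HOX proteins bind DNA together with TALE homeodomain partners of the PBX, MEIS and PKNOX families, and all 10 of these were expressed. The counts of this and the following lists stand beside all genes tested, of which 26% rose and 24.9% fell with differentiation under vehicle, 17.6% rose and 20.4% fell with FG-4592 in MSCs, and 21.9% rose and 22% fell with FG-4592 in osteocytes. Of the 10 TALE genes, 4 rose and 5 fell from MSCs to osteocytes with vehicle, and with FG-4592 3 rose and 4 fell in osteocytes and 1 rose and 3 fell in MSCs. Pknox2 alone passed both cutoffs, with a log2 fold change of -1.75 ± 0.144 for FG-4592 in MSCs. Polycomb proteins keep Hox clusters silent and trithorax proteins keep them active. Of 32 Polycomb genes, all tested, 7 rose and 15 fell with differentiation under vehicle (26% and 24.9% of all genes), 11 rose and 4 fell with FG-4592 in MSCs (17.6% and 20.4% of all), and 16 rose and 7 fell in osteocytes (21.9% and 22% of all). Their median log2 fold changes were -0.12, 0.10 and 0.27, beside -0.01, -0.05 and 0 over all genes tested. Pcgf5, a subunit of a variant Polycomb complex, rose with FG-4592 by 1.96 ± 0.0769 in MSCs and 1.33 ± 0.0747 in osteocytes. Cbx7, a reader of the Polycomb mark, rose by 1.45 ± 0.0926 with FG-4592 in osteocytes, and Phf19, a partner of PRC2, fell by 1.59 ± 0.352 there, while Epop, another PRC2 partner, fell by 1.36 ± 0.239 with differentiation under vehicle and rose by 1.22 ± 0.221 with FG-4592 in MSCs. Of 20 trithorax genes and other activators 17 were tested. In them 7 rose and 2 fell with differentiation under vehicle (26% and 24.9% of all genes), 3 rose and 3 fell with FG-4592 in MSCs (17.6% and 20.4% of all), and 7 rose and 4 fell in osteocytes (21.9% and 22% of all).

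Retinoic acid switches on Hox genes of low paralog number in the embryo. Of 18 genes of its pathway 14 were tested, and 6 rose and 2 fell with differentiation under vehicle (26% and 24.9% of all genes), while 4 rose and 4 fell with FG-4592 in MSCs (17.6% and 20.4% of all) and 6 rose and 2 fell in osteocytes (21.9% and 22% of all). The retinoic acid-making enzymes Aldh1a1 and Aldh1a3 rose with differentiation under vehicle by 2.81 ± 0.239 and 2.13 ± 0.249 on the log2 scale. Aldh1a1 averaged 1.17 CPM in vehicle MSCs and 8.27 CPM in vehicle osteocytes, and Aldh1a3 averaged 0.645 and 2.83 CPM. Aldh1a2, another such enzyme, averaged 1.94 and 2.07 CPM. Aldh1a1 fell by 1.67 ± 0.296 with FG-4592 in MSCs, and Cyp26b1, which degrades retinoic acid, rose by 1.35 ± 0.239 with FG-4592 in osteocytes.

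Other genes of position were read beside the Hox set. Of 30 limb field and limb type factors 17 were tested, and 3 rose and 10 fell with differentiation under vehicle (26% and 24.9% of all genes), while with FG-4592 1 rose and 7 fell in each state (17.6% and 20.4% of all in MSCs, 21.9% and 22% in osteocytes). Their median log2 fold changes were -0.34, -0.46 and -0.37 in these comparisons, beside -0.01, -0.05 and 0 over all genes tested. Msx2, a homeobox gene of limb bud and skull, went from 50 to 116 counts in vehicle MSCs to 0 to 9 in vehicle osteocytes (log2 fold change -4.51 ± 0.764). En1, the ventral limb gene, fell by 1.65 ± 0.477 and Isl1, an initiator of the hindlimb, fell by 1.58 ± 0.429, while Hic1 rose by 1.91 ± 0.178. With FG-4592, Hic1 fell by 2.84 ± 0.221 in MSCs and by 0.97 ± 0.17 in osteocytes. Chosen after their values were seen, the selectors of limb type were these: Tbx5 of the forelimb had at most 1 count and Tbx4 of the hindlimb at most 3, whereas Pitx1 of the hindlimb had 931 to 1678. Of 21 factors of the head, where Hox genes are off in the embryo, 8 were tested, with 1 higher and 2 lower with differentiation under vehicle, again beside 26% and 24.9% of all genes. Foxc2 fell by 1.04 ± 0.114, and Otx1 fell with FG-4592 by 1.23 ± 0.468 in MSCs and by 2.04 ± 0.485 in osteocytes. Of the noncoding genes of the Hox clusters 5 were tested, and with differentiation under vehicle Hotair fell (-0.82 ± 0.274, edgeR adjusted p = 0.0193).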

How the data were processed

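The deposited values were whole-number counts per gene, made by the authors from 100-base paired reads aligned with STAR 2.7.2a to mm10. Pairs were counted with featureCounts (Subread 1.6.2) without strand and with a minimum mapping quality of 10. The option -O was set, so that overlapping genes all received a pair. The Hox members and all gene lists were chosen with earlier results of these data known. Genes passed where at least 3 of the 12 libraries exceeded 10 counts, and the counts of these 16484 genes were fitted with the quasi-likelihood test of edgeR 4.0.16 (R 4.3.3), with TMM factors and 1 coefficient for each of 4 conditions. Benjamini-Hochberg adjustment ran over all genes tested, at a threshold of 0.05, with a further cutoff of 1 on the absolute log2 fold change. Fold changes are given with an SE, taken as the absolute log2 fold change over the square root of the F statistic of the test. The 95% intervals use 8 residual degrees of freedom. The p-values of the test use more, so an interval can be wider than its p-value implies. CPM were divided by the deposited exonic length where levels are compared between genes. Depth was 52829185 to 68108470 counts per library, and zero limits cover counting error only. Values per library are given for the 6 Hox genes with the highest mean level and for every Hox gene past both cutoffs, and up to 4 genes past both cutoffs with the largest fold from each list. The values and calls of 1 expressed Hox gene and of some list genes are not reported here, and counts of called Hox genes run over the other 18. Alternatives were DESeq2 1.42.0, a likelihood ratio test, other normalizations and filters, a replicate block, fewer libraries, and leaving out genes that share exonic bases.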

Additional observations from a re-analysis of the deposited data

Results flagged for a closer look

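Hoxc5 and Hoxc6, neighbours on chromosome 15, stood out because the test of the difference between the FG-4592 responses of osteocytes and MSCs passed for each. They were 2 of 18 Hox genes, a share no larger than the 13.3% of all genes tested that passed in this direction, and over the 12 removals of 1 library the call was kept in 6 for Hoxc5 and in 4 for Hoxc6. The log2 difference (osteocyte response minus MSC response) was 0.96 ± 0.289 for Hoxc5, and its 95% interval ran from 0.29 to 1.63. In vehicle cells Hoxc5 averaged 3.82 CPM in MSCs and 1.62 CPM in osteocytes, and with FG-4592 it averaged 2.46 and 2.03 CPM, so the states lay closer together in treated cells. The log2 difference was 0.40 ± 0.128 for Hoxc6, and its 95% interval ran from 0.10 to 0.69. Hoxc6 averaged 22.7 and 14.2 CPM with vehicle and 21.0 and 17.3 CPM with FG-4592, in MSCs and osteocytes. Hoxc8, between Hoxc6 and Hoxc9, had a difference of -0.33 ± 0.119, of the opposite sign. Hoxc5 shares 166 exonic bases with Hoxc10, whose counts were 1561 to 3853 against 84 to 232 for Hoxc5, and the part of such shared reads in its difference was not tested.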

How the results depend on the processing

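No called value listed here turned its direction in any alternative. In the order past both cutoffs, higher and lower, the counts of Hox genes over the 12 removals of 1 library ran 0 to 0, 0 to 0 and 4 to 5 for FG-4592 in MSCs, 0 to 0, 0 to 2 and 5 to 6 for FG-4592 in osteocytes, 1 to 3, 1 to 3 and 5 to 8 for osteocytes against MSCs with vehicle, 1 to 4, 0 to 1 and 4 to 6 for the same with FG-4592, and 0 to 1, 0 to 3 and 0 to 2 for the difference of responses. Log2 values ran from -1.04 to -0.95 for Hoxc13 and from -1.31 to -1.15 for Hoxc5 with vehicle, from -1.28 to -1.19 for Hoxc13 and from -1.06 to -0.98 for Hoxc11 with FG-4592, and for the difference of responses from 0.29 to 0.45 for Hoxc6 and from 0.83 to 1.15 for Hoxc5. The number of expressed Hox genes was 19 in each removal, and the Hoxc shares ran 58.3 to 58.8, 56 to 57.1, 46.2 to 48.2 and 43.2 to 44.1% in vehicle MSCs, treated MSCs, vehicle osteocytes and treated osteocytes.

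For FG-4592 in osteocytes, 1 was higher with RLE or upper-quartile scaling, with no filter, by DESeq2 and with the compared libraries alone, 0 on library size alone, and 1 passed both cutoffs with no filter: Hoxb6, a silent gene that this fit adds. With vehicle, 1 was higher in osteocytes with no filter. For the difference of responses, 1 gene (Hoxc8) was lower with RLE, upper-quartile and library-size scaling and by DESeq2. Leaving out genes that share exonic bases takes 8 of the 18 Hox genes out of the fit: 3 were then lower with FG-4592 in MSCs, 1 higher and 0 past both cutoffs with FG-4592 in osteocytes, 0 past both cutoffs with vehicle, 0 higher and 3 lower in osteocytes with FG-4592, and 0 higher and 1 lower for the difference of responses. Counting any gene with 1 count in any library as expressed gave 35. With more than 10 counts asked for in all 12 libraries, Hoxc12 was no longer expressed. With at least 1 CPM asked for in at least 3 libraries, neither Hoxc12 nor Hoxa4 was. Without division by length the Hoxc share was 49.8, 48, 38.8 and 35.6%, and without genes sharing exonic bases it was 60, 60.2, 49.1 and 48.8%, in which vehicle and treated MSCs no longer stood in the same order. Library size alone moved the median of all genes to -0.13 for FG-4592 in MSCs.

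With replicate number as a block the calls stayed within 1.5 times, with 3 rather than 2 past both cutoffs for osteocytes against MSCs with FG-4592 (Hoxa2 joined). Deviations of same-numbered libraries correlated at -0.0528 to 0.0543, which shows no pairing by number but cannot exclude one. Depth limits Hoxc12 and Hoxa4, whose intervals are widest.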

Other observations

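Other genes inside the active clusters were few and low. In Hoxa the noncoding rows Gm15050 (3 to 42 counts), Gm27861 (4 to 31 counts) and Hotairm1 (51 to 172 counts) each passed both cutoffs in 1 comparison. Of the 9 rows tested inside the clusters, 2 passed for osteocytes against MSCs with FG-4592, where 18.3% of all genes did, and 1 for FG-4592 in osteocytes, where 10.5% did. Gm15050 had a log2 fold change of 1.54 ± 0.559 for osteocytes against MSCs with FG-4592 and Gm27861 one of 1.35 ± 0.521 for FG-4592 in osteocytes. Both were named after their values were seen. Hotairm1 had a log2 fold change of 1.26 ± 0.273 for osteocytes against MSCs with FG-4592 (edgeR adjusted p = 0.000937), and one of 0.83 ± 0.268 for FG-4592 in osteocytes (edgeR adjusted p = 0.0194). Its exons overlap another gene, and reads on the shared bases cannot be told apart. Hoxaas2, Hoxaas3 and Hoxa11os passed in none of the 4 comparisons.

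Markers of other cell types were read in the same fit. Of 9 mesenchymal progenitor markers tested, 5 rose and 2 fell from MSCs to osteocytes with vehicle, where 26% and 24.9% of all genes tested did. With FG-4592, 1 of them rose and 7 fell in MSCs, where 17.6% and 20.4% of all genes did, and 2 rose and 5 fell in osteocytes, where 21.9% and 22% did. Of 4 chondrocyte markers tested, 2 rose and 2 fell from MSCs to osteocytes with vehicle, and all 4 rose with FG-4592 in osteocytes (21.9% of all genes), where their list's summed level was 376 to 456 CPM against 115 to 135 CPM with vehicle. In MSCs that sum was 148 to 164 CPM with FG-4592 against 83.9 to 93.3 CPM with vehicle. Col2a1, the collagen of cartilage, rose with FG-4592 in osteocytes by 2.23 ± 0.129 on the log2 scale. Blood, skeletal muscle and endothelial markers had 2 tested genes each, and their summed levels were at most 20.2, 8.97 and 2.64 CPM in any library, with Hbb-bs and Myog at 0 in all libraries. Their part in the Hox values was not tested.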
